A study of Mus musculus with 33 samples.

Results

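The respiratory chain genes described here are the nuclear genes of the mouse frontal cortex that encode subunits of complexes I, III, IV and V of the inner mitochondrial membrane. They were taken from the table of gene levels by symbol: Ndufa, Ndufb, Ndufc, Ndufs or Ndufv followed by a number for complex I, Uqcr for complex III, Cox4 to Cox8 followed by a letter for complex IV, and Atp5 for complex V. The rule found 80 of 21565 listed genes, 37 in complex I, 8 in complex III, 18 in complex IV and 17 in complex V. Symbols of assembly factors are outside it, as are Cyc1, the haem-bearing subunit of complex III, and Ndufab1, a small carrier protein of complex I. It takes in Atp5s and Atp5sl, whose products are not counted among the standard subunits of complex V, and Ndufa4, which was named for complex I and is now known as a subunit of complex IV.

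Complex I passes electrons from NADH to ubiquinone, complex III passes them on to cytochrome c, and complex IV hands them to oxygen. The protons these complexes pump drive complex V, which makes ATP. Mitochondrial DNA encodes the catalytic core of complex IV and parts of the others, so every one of these machines is built from the products of both genomes, and the nuclear part includes large catalytic subunits as well as many small accessory proteins. Neurons rely on this chain for most of the ATP that synaptic signalling uses.

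The study asked how loss of sleep changes gene expression in the frontal cortex and what the transcription factor MEF2C contributes to it. Stranded mRNA libraries were sequenced from the frontal cortex of adult male mice, 33 in 7 groups, all on a C57BL/6J background, kept in constant darkness beforehand and killed at zeitgeber time 6. Wild-type mice slept freely (WT CS, n = 6), were kept awake for 6 hr on a slow treadmill (WT SD, n = 7), or were kept awake for 4 hr and then slept for 2 hr (WT RS, n = 7). Mice with loxP sites around an exon of Mef2c (Mef2c f/f: CS, n = 4, SD, n = 3) and mice that also carried Cre under the Camk2a promoter (Mef2c-cKO: CS, n = 3, SD, n = 3) had no RS group. The Camk2a promoter drives Cre in forebrain excitatory neurons, so interneurons, glia and vessels keep the floxed allele, and some of the Mef2c-cKO mice also carried a recombined germline allele, which leaves 1 functional copy in their cells outside the neurons that express Cre. The floxed line had been backcrossed to C57BL/6J.

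Levels are counts per 1000000 reads (CPM) rescaled between libraries, here called rescaled CPM, and the recovered depth was 44395583 to 249046089 reads in WT libraries and 18935045 to 94678945 reads in the others. Mef2c itself was at 1079 to 1205 rescaled CPM in Mef2c f/f CS and at 955 to 1724 in the libraries labelled Mef2c-cKO CS, so the gene total was not lower in them. It sums reads over the whole gene, of which only the floxed exon is removed, and it therefore does not check the labels. Among the libraries, 3 stood apart: WT CS 2 with the lowest mean level of all 4 complexes, WT SD 2 with the highest, and Mef2c-cKO CS 8, where microglial markers summed to 868 rescaled CPM against 256 at the lowest in its group. The counts of calls without them stand beside the WT CS to SD and control-sleep genotype results.

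The 4 promoters below belong to the member with the largest called rise after sleep deprivation in each complex among members with a RefSeq window, and are shown because these genes moved together. Each runs 5′ to 3′ on the gene's strand, from 250 bases before the annotated start to 50 after it, in GRCm38.p6. Capitals mark the ETS motif CCGGAAG, read on either strand. Ndufb11 lies at chrX:20617570-20617869 on the minus strand, Uqcr11 at chr10:80406772-80407071 on the minus strand, Cox5b at chr1:36691237-36691536 on the plus strand and Atp5e at chr2:174464052-174464351 on the minus strand.
Ndufb11: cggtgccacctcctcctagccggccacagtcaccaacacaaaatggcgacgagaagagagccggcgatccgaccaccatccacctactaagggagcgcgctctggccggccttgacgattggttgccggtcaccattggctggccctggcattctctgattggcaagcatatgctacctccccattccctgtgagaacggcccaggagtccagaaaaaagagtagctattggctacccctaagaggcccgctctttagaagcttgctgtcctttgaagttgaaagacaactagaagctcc
Uqcr11: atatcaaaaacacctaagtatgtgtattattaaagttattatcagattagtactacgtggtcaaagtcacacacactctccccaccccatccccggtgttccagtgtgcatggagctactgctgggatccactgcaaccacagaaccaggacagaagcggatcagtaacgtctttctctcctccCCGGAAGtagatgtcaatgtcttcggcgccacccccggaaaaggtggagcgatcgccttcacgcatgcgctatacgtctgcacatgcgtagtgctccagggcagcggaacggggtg
Cox5b: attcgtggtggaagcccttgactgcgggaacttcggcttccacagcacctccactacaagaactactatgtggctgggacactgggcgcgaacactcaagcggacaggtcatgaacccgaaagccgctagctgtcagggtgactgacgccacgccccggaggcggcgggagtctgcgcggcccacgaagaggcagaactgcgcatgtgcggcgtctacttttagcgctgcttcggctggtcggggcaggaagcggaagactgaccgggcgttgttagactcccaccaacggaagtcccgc
Atp5e: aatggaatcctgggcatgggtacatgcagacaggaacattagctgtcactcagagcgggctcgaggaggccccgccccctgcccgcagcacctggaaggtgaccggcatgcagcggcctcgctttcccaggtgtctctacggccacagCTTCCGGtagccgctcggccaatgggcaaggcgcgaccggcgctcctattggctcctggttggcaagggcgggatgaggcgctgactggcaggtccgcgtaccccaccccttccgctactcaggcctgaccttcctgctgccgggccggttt

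RefSeq windows were found for 63 of the 80 members. The consensus motif of NRF1 was in the window of 15 of the 63 (23.8%), against 11.2% of 9714 genes tested in WT CS to SD that have a window and 5.19% of all 27025 genes with one. By complex these were 7 of 32 in complex I, 1 of 5 in complex III, 1 of 13 in complex IV and 6 of 13 in complex V. The ETS motif was in 14 windows (22.2%, against 18.8% and 9.93%), the YY1 motif AAGATGGCG in 7 (11.1%, against 3.44% and 1.64%), the cAMP response element TGACGTCA in 4 and the E-box CACGTG in 5. Both strands were searched, and in the 4 windows shown the ETS match in Uqcr11, 66 bases before the start, and that in Atp5e, 102 bases before it, are the only matches to any of these motifs and neither overlaps another motif. The estrogen-related receptor motif TCAAGGTCA was in 1 window. The median log2 fold change after sleep deprivation was 0.54 in members with the NRF1 motif and also 0.54 in those without it. It was 0.82 in the 14 with the ETS motif and 0.52 in the 46 tested without it, and 0.32 in the 7 with the YY1 motif and 0.54 in the 53 without it, given as a description with no test. A match is a description of letters, and no match says nothing about the factor.

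After 6 hr of sleep deprivation in wild-type mice, 44 of 73 members tested rose, 3 fell and 26 did not pass the test. Among all 12913 genes tested, 24.6% rose and 20.5% fell, beside 60.3% of the members that rose. A gene was called when its adjusted p from limma was at most 0.05 and its absolute log2 fold change at least 0.3. The 4 complexes had nearly the same median change: 0.51 on the log2 scale in complex I, 0.52 in complex III, 0.53 in complex IV and 0.50 in complex V, a range of 0.02, beside 0.04 over all genes. In complex I 23 of 35 members rose and none fell, in complex III 5 of 8 rose and 1 fell, in complex IV 6 of 13 rose and 2 fell, and in complex V 10 of 17 rose and none fell. The risers of complex IV include Cox7a1, which was tested only because every WT SD library, where it was higher, reached a CPM of 1. Subunits of the same complex were spread more widely, with an SD over members of 0.38 in complex I, 0.73 in complex III, 0.64 in complex IV and 0.56 in complex V.

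**Figure D1:**
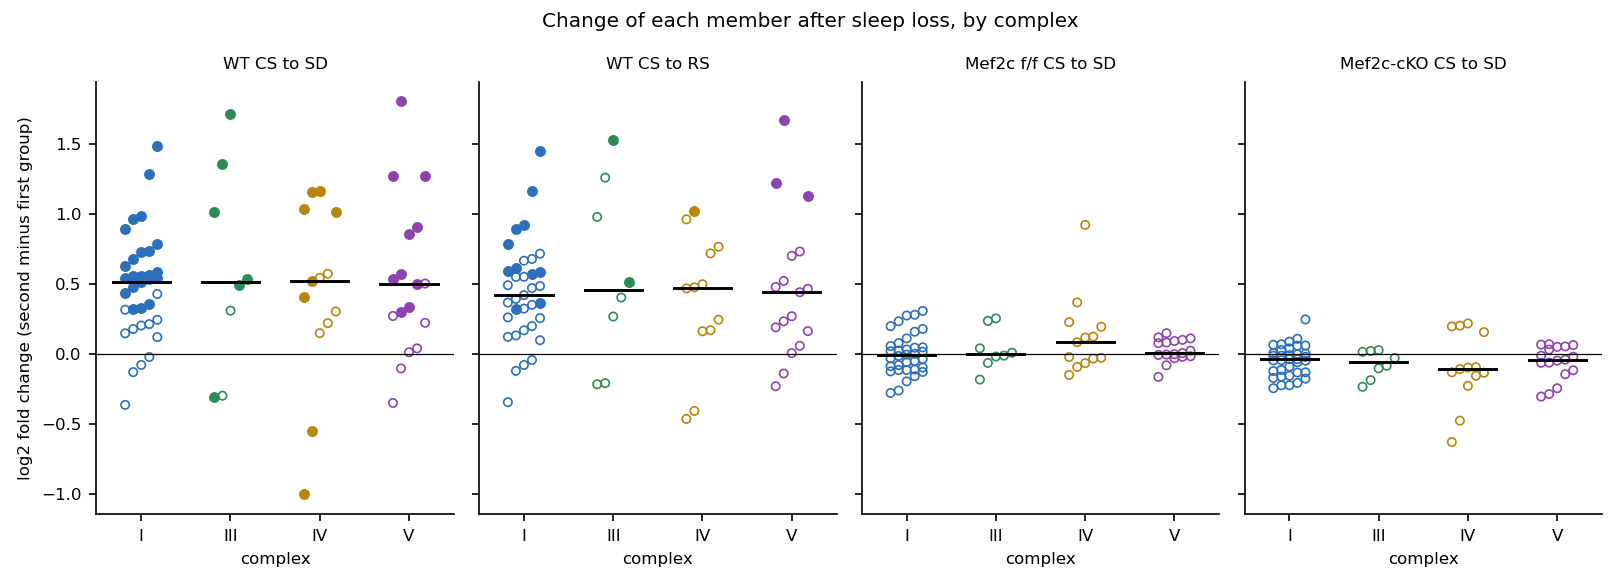
Log2 fold change of each tested member by complex, in 4 comparisons of sleep loss with control sleep. Each circle is 1 gene, filled where it was called, and the bar is the median of the complex. The medians lie at 0.50 to 0.53 in WT CS to SD and at 0.42 to 0.47 in WT CS to RS, and close to 0 with no filled circle in Mef2c f/f and in Mef2c-cKO.

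In complex I the largest rises were those of 3 accessory subunits, Ndufa2, Ndufb11 and Ndufb10. Ndufa2, on chromosome 18, was at 4.54 to 29.4 rescaled CPM (median 17.3) in WT CS and at 20.4 to 73.6 (median 37.4) in WT SD. WT SD 3 alone lay within the CS range, and the log2 fold change was 1.49 ± 0.38 (SE, adjusted p = 0.00754, limma). Ndufb11 was at 5.99 to 36.1 (median 21.8) in WT CS and at 28.1 to 69.2 (median 45.4) in WT SD. Its log2 fold change was 1.28 ± 0.34 (SE, adjusted p = 0.00942, limma), and only WT SD 3 and WT SD 6 lay below the highest CS library. Ndufb10 was at 22.2 to 66.6 (median 42.9) and at 54.3 to 129 (median 81.3), with WT SD 3 alone inside the CS range, and rose by 0.99 ± 0.24 (SE, adjusted p = 0.00599, limma).

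The 7 core subunits of complex I, which carry the flavin and the iron-sulphur clusters or hold the quinone site, did not stand apart from its accessory subunits. Of the 7, 5 rose, among them Ndufs8 and Ndufv1, with a median of 0.51, and 18 of 28 accessory subunits rose, also with a median of 0.51. Ndufs1, the largest of the iron-sulphur subunits, was at 146 rescaled CPM in WT CS and 138 in WT SD, a log2 fold change of -0.08 (95% interval -0.23 to 0.08), and did not pass. Ndufb4, a membrane-arm subunit, had the lowest value of the complex, -0.36 ± 0.21 (SE, adjusted p = 0.146, limma).

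In complex III 3 of 5 small subunits and 2 of 3 core subunits rose, and 1 core subunit fell. Uqcrq, the small subunit next to the quinone site, was at 2.86 to 17.2 rescaled CPM (median 10.9) in WT CS and at 12.7 to 56.2 (median 40.4) in WT SD, and rose by 1.72 ± 0.40 on the log2 scale (SE, adjusted p = 0.00503, limma). WT SD 3 alone lay below the highest 3 CS libraries, and the groups overlapped. The other small subunits Uqcr11 (8.64 to 79.1 against 47.5 to 159.8, log2 fold change 1.36 ± 0.43) and Uqcr10 (19.1 to 58.7 against 40.7 to 145, 1.02 ± 0.31) also rose, with WT SD 3 and WT SD 6 inside the CS range in both, as did the core subunit Uqcrc1 and Uqcrfs1, the Rieske iron-sulphur protein. Uqcrc2, the second large core protein, fell from 147 to 237 (median 168) in WT CS to 126 to 181 (median 134) in WT SD, a log2 fold change of -0.31 ± 0.12 (SE, adjusted p = 0.0473, limma). Its ranges overlapped too, and the value lay close to both thresholds. Without WT CS 2, which held the 237, it was -0.22 (adjusted p = 0.0995, limma), and without WT SD 2 -0.32 (adjusted p = 0.0571, limma), and neither was called. Uqcrb had -0.30 ± 0.12 (SE, adjusted p = 0.0482, limma) and missed the threshold on fold change.

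In complex IV every nuclear subunit surrounds the catalytic core made from mitochondrial DNA. Cox5b, a zinc-binding subunit, was at 35.6 to 96.3 rescaled CPM (median 61.7) in WT CS and at 76.3 to 174 (median 136) in WT SD, with a log2 fold change of 1.17 ± 0.24 (SE, adjusted p = 0.00277, limma). Only WT SD 3 and WT SD 6 reached down into the CS range. Cox6a1 was at 40.7 to 167 and at 84.8 to 244, Cox8a at 85.7 to 280.0 and at 131 to 463, and Cox5a at 22.6 to 56.9 and at 46.7 to 127. WT CS 5 was the highest control in all 3, and WT SD 3 and WT SD 6 lay below it, with WT SD 4 also below it for Cox8a. Cox6a1 rose by 1.16 ± 0.30, Cox8a by 1.04 ± 0.31 and Cox5a by 1.02 ± 0.22 (SE, adjusted p = 0.00788, 0.0142 and 0.004, limma). Cox6c, a single-pass subunit, went the other way, from 247 to 598 (median 357) in WT CS to 187 to 360 (median 240) in WT SD, and fell by 0.55 ± 0.20 on the log2 scale (SE, adjusted p = 0.0338, limma). Without WT CS 2, which held the 598, the value was -0.41 and was not called (adjusted p = 0.0739, limma).

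In complex V, the ATP synthase, members of the membrane part and of the catalytic head rose. Atp5e, the epsilon subunit of the central stalk, had the largest change of all members: it was at 3.23 to 32.8 rescaled CPM (median 18.7) in WT CS and at 25.6 to 116 (median 41.1) in WT SD, with a log2 fold change of 1.81 ± 0.49 (SE, adjusted p = 0.00972, limma). WT SD 3 lay below 2 CS libraries. Atp5g3, which encodes the c subunit of the rotor ring, rose by 1.28 ± 0.28 and Atp5k, the membrane subunit e, by 1.28 ± 0.36 (SE, adjusted p = 0.00412 and 0.0113, limma). Atp5g3 was at 17.7 to 54.4 (median 39.9) and at 52.3 to 149 (median 87.5), with WT SD 3 alone inside the CS range. Atp5k was at 14.8 to 69.4 (median 39.0) and at 51.8 to 211 (median 76.4), with WT SD 3 and WT SD 6 inside it. All 3 small membrane subunits measured, Atp5j2, Atp5k and Atp5l, rose.

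The abundant catalytic subunits Atp5a1 and Atp5b rose by 0.30 ± 0.10 and 0.34 ± 0.11, at levels of 515 and 618 rescaled CPM in WT CS. Atp5c1, the gamma subunit that turns inside the head, was at 183 and 185, a log2 fold change of 0.01 (95% interval -0.16 to 0.18). Of the 4 peripheral stalk subunits, which hold the head still, only Atp5o rose (0.50 ± 0.15, SE, adjusted p = 0.0129, limma), and Atp5f1, Atp5h and Atp5j had values of 0.04, -0.10 and 0.27. Atp5s and Atp5sl did not pass. The division of the members into core, small and membrane subunits was made after these values were seen and carries no test.

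**Figure D2:**
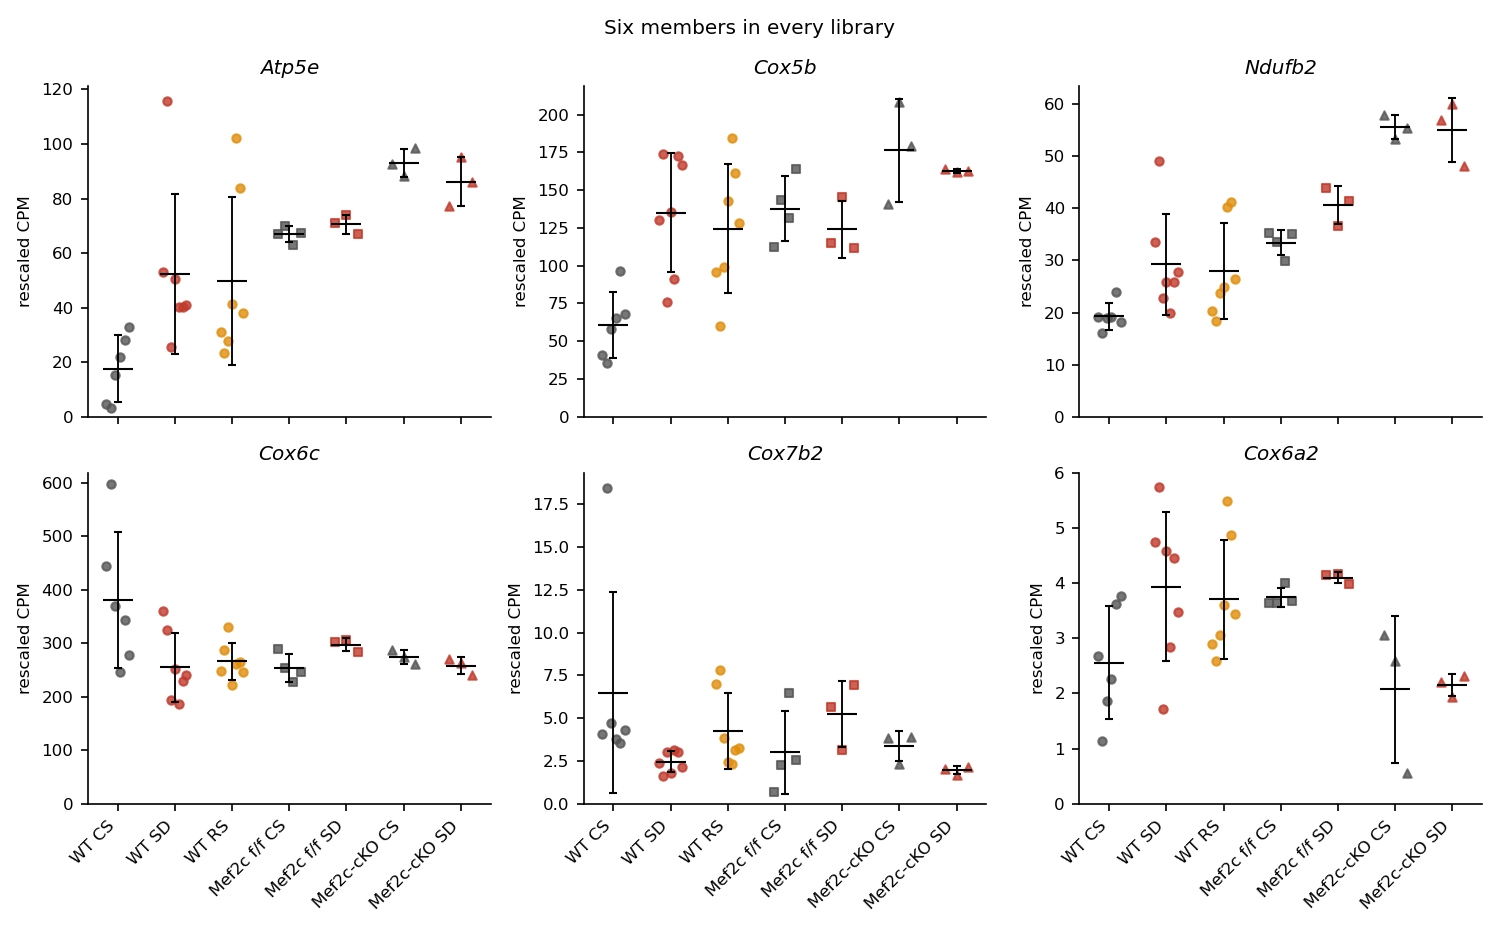
Rescaled CPM of 6 members in every library, by group, with the mean and SD. Atp5e, Cox5b and Ndufb2 had their lowest group mean in WT CS. Cox6c and Cox7b2 had their highest library in WT CS (WT CS 2 in both), and Cox6a2 was lower in all Mef2c-cKO SD libraries than in all Mef2c f/f SD libraries.

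In not one of the risers were all SD libraries above all CS libraries, against 4.68% of all genes tested, and 1 faller (Cox7b2) did not overlap, against 10.4%. The mean level of the members, taken as log2 and over the 70 members at a CPM of 1 or more in every library, was compared for each complex. In complex I it was 4.98 to 5.74 (median 5.44) in WT CS and 5.51 to 6.36 (median 5.93) in WT SD. In complex III it was 5.18 to 6.18 (median 5.84) and 5.90 to 6.94 (median 6.43). In both, WT SD 3 and WT SD 6 were the libraries inside the CS range, and the same 2 libraries were inside it in complexes IV and V.

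The complexes rose and fell together from library to library. Set against the WT CS mean of each complex, the 4 complexes of any 1 library differed from each other by 0.08 to 0.31 on the log2 scale, while complex I alone ranged from 4.98 in WT CS 2 to 6.36 in WT SD 2. The difference between complex III and complex I was 0.36 ± 0.10 (SD, n = 6) in WT CS and 0.48 ± 0.08 (SD, n = 7) in WT SD. Complex V exceeded complex I by 0.60 ± 0.06 and 0.65 ± 0.03, and complex IV by 1.08 ± 0.11 and 1.16 ± 0.12. The ranges of all 3 differences overlapped between WT CS and WT SD.

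**Figure D3:**
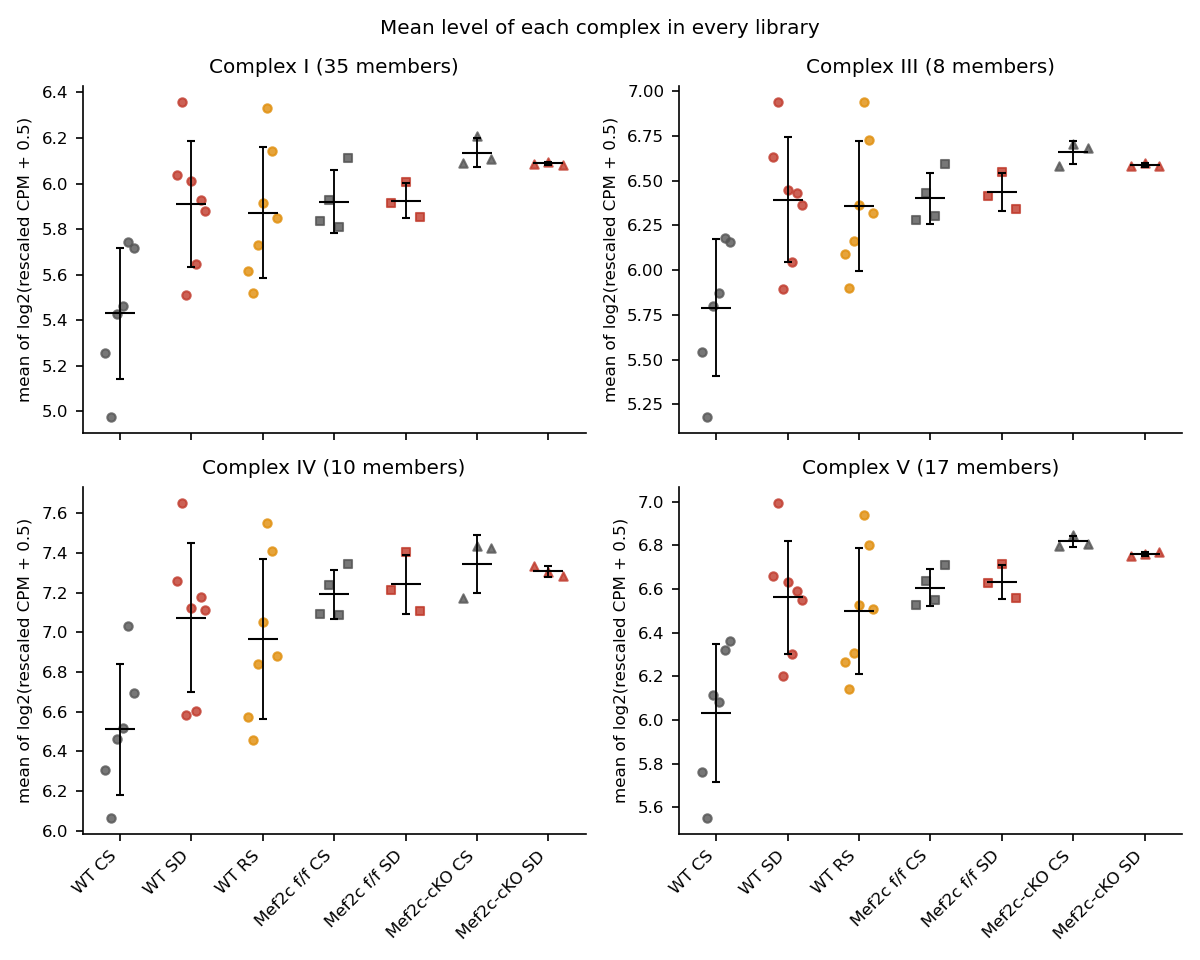
Mean of log2(rescaled CPM + 0.5) over the members of each complex, in every library, by group, with the mean and SD. The order of the libraries is much alike in the 4 panels: WT CS 2 is lowest in each, and WT SD and WT RS overlap WT CS, while the Mef2c-cKO libraries lie close together near the top.

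The WT result rests in part on single libraries, and base composition moved with it. Without WT CS 2, 29 of 73 members were called, 28 higher and 1 lower. The count was 33 without WT SD 2 and 31 without WT SD 4. Without both of WT CS 1 and WT CS 2, whose listed genes sum to the fewest CPM in that group, it was 18. Of all genes, 4509, 5013, 4995 and 3717 were called in these fits in turn, against 5825 with every library. Transcripts of the 43 risers with an annotated sequence had a median GC content of 54.3%, those of the 3 fallers 44.4%, and the tested genes as a whole 50.6%. Over 72 members the Spearman correlation of the log2 fold change with GC content was 0.55, and over 12443 genes 0.72, a description across genes of the same libraries, which are not independent replicates. After a per-library correction for GC content and transcript length fitted to all genes, 20 of 72 members were higher and 4 lower. Of 12443 genes, 1793 were higher and 1083 lower. The medians were 0.16, 0.24, 0.20 and 0.27 in complexes I, III, IV and V, beside 0.06 over all genes. Uqcrq (0.87), Cox5b (1.12), Atp5e (1.15), Atp5g3 (1.09), Ndufa2 (1.14) and Ndufb11 (1.06) were among the 19 of the 47 called members that stayed called, as was the fall of Cox6c (-0.79). Among the members described above, Uqcr11 (0.50), Uqcr10 (0.32), Cox6a1 (0.41), Cox8a (0.29), Atp5k (0.61), Uqcrc2 (-0.01) and Cox7b2 (-0.79) were no longer called. In complex I, where none fell before the correction, Ndufb4 (-0.55), Ndufs5 (-0.36) and Ndufb9 (-0.31) were called lower after it, and Ndufv2 (0.59) and, in complex V, Atp5j (0.47) were newly called higher. The part of base composition in the WT difference was not tested. Scaling moved the split of all genes but not the direction of these medians: with CPM as deposited, 6106 genes rose and 801 fell, against 3182 and 2643, the median of all genes was 0.30, and the members had 62 rises, 1 fall and a median of 0.78.

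**Figure D4:**
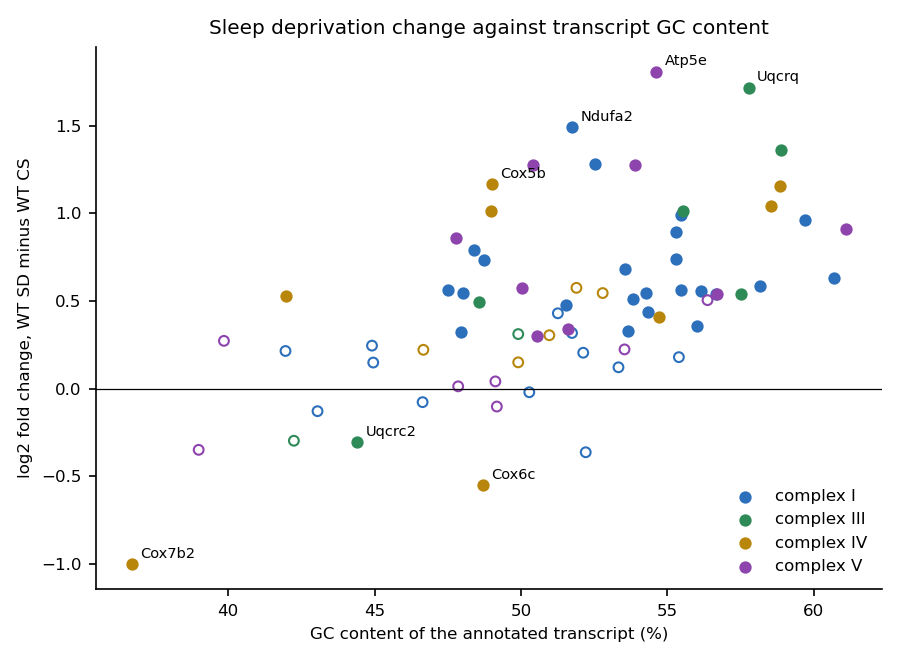
Log2 fold change in WT CS to SD of 72 members against the GC content of the annotated transcript in percent, coloured by complex and filled where called. Members of higher GC content tend to lie higher (Spearman correlation 0.55 over 72 members), and Cox7b2, at 36.7% GC, has the lowest value.

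Of the other properties that the symbols do not fix, coding length and level also differed along the change. The 46 members with a coding sequence under 500 bases had a median of 0.55 with 27 rises, and the 26 longer ones a median of 0.33 with 16 rises. The Spearman correlation with coding length was -0.26 over 72 members (-0.22 over 12442 genes), and with the level in WT CS -0.46 over 73 members (-0.43 over 12913 genes). The level in WT CS enters the fold change itself, so this last value is a description only. Of the small abundant transcripts, Cox7c (84.2 and 101 rescaled CPM in WT CS and SD) and Uqcrh (98.7 and 123) did not pass. Others rose, such as Cox8a (207 coding bases, 85.7 to 280.0 rescaled CPM in WT CS) by 1.04 and Cox7b (240 coding bases, 57.2 to 110) by 0.53. Uqcrq and Atp5e, which were low in WT CS, had the largest changes.

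After recovery sleep fewer members passed, with medians that stayed near those of sleep deprivation. In WT CS to RS 17 of 72 members rose (23.6%) and none fell, where 9.28% of all 12752 genes rose and 8.22% fell. They were 11 of 35 in complex I, 2 of 8 in complex III, 1 of 12 in complex IV and 3 of 17 in complex V, with medians of 0.42, 0.46, 0.47 and 0.44. The 2 comparisons share the WT CS libraries, so their likeness is not independent evidence. Uqcrq was at 13.9 to 63.4 rescaled CPM (median 24.3) in WT RS, Cox5b at 59.8 to 185 (median 128) and Atp5e at 23.3 to 102 (median 37.9). In complex I the 11 were Ndufa2 (a mean of 16.2 in WT CS and 42.7 in WT RS), Ndufb11 (20.7 and 42.5), Ndufb7 (23.7 and 41.8), Ndufb10 (44.5 and 83.9), Ndufb8 (43.4 and 72.5), Ndufa6 (35.2 and 54.6), Ndufs6 (25.3 and 40.1), Ndufs7 (34.7 and 53.1), Ndufs8 (28.8 and 43.4), Ndufa8 (37.3 and 48.7) and Ndufv3 (35.6 and 44.5). The others were Uqcrc1 (105 and 150.3), Atp5g3 (37.4 and 84.5) and Atp5k (39.9 and 96.4). For Uqcrq, Cox5b and Atp5e the highest RS library was WT RS 5 and the lowest WT RS 2, which lay inside the CS range. Also inside it were WT RS 3 for Uqcrq, WT RS 1 for Cox5b, and WT RS 1 and WT RS 3 for Atp5e. The log2 fold changes of Uqcrq, Cox5b and Atp5e were 1.53 ± 0.41, 1.03 ± 0.26 and 1.67 ± 0.52 (SE, adjusted p = 0.0362, 0.0347 and 0.044, limma).

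The recovery result depended on single libraries. No member was called without WT CS 1, WT CS 2 or WT CS 3, or without WT RS 3, 4, 5, 6 or 12. Calls were lost over all genes too, from 2232 with every library to 223, 98 and 0 without WT CS 1, 2 and 3. Without WT RS 4, 3 genes were called, and without WT RS 3, 5, 6 or 12, 0 were. The complex medians of the members stayed between 0.28 and 0.58 over all libraries left out in turn. The deepest RS libraries, WT RS 1 to 3 at 185932969 to 249046089 reads, had complex I means of 5.52 to 5.73, and WT RS 5 and 6 at 53595657 and 69618174 reads had 6.33 and 6.14. In the controls, WT CS 5 and 6, the shallowest of WT CS at 44395583 and 59185672 reads, had the highest complex I means of that group, 5.74 and 5.72. The deepest controls, WT CS 3 and 4 at 198029232 and 218548740 reads, were at 5.43 and 5.46, above WT CS 1 and 2 at 91683026 and 83759689 reads, at 5.26 and 4.98. In WT SD the shallowest library, WT SD 2 at 57394212 reads, was at 6.36. The deepest, WT SD 3 at 145658838 reads, was at 5.51, and WT SD 1, next to it at 142542988 reads, was at 6.04. The part of depth in these levels was not tested. With depth as a covariate, 46 of 72 members and 4276 of 12752 genes were called. With CPM as deposited 30 members rose and none fell, where 2350 genes rose and 315 fell against 1184 and 1048, and the median of all genes was 0.20.

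Between deprivation and recovery no difference was detectable. In WT SD to RS no member was called (limma), with 1 at an unadjusted p of at most 0.05, where 5.29% of all genes were, and edgeR and DESeq2 also called none, with 0.0232% and 0.418% of all genes called. The complex medians were -0.04 in complexes I and III, -0.06 in complex IV and -0.05 in complex V, and the mean levels overlapped in all 4. The member at the low p was Cox7b2, at 1.62 to 3.12 rescaled CPM (median 2.4) in WT SD and 2.30 to 7.81 (median 3.26) in WT RS. Among all genes, 0.0232% were called in this comparison.

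In Mef2c f/f mice sleep deprivation gave no called change in any of the 4 complexes, with 4 and 3 libraries. No member of 73 was called by limma, edgeR or DESeq2, where these called 0.0403%, 0.0725% and 3.76% of 12410 genes, and 8 members had an unadjusted p of at most 0.05 (17% of all genes did), all of them with a positive change. The complex medians were 0.00 in complexes I and III, 0.09 in complex IV and 0.01 in complex V. The mean level of complex I was 5.81 to 6.11 (median 5.88) in CS and 5.86 to 6.01 (median 5.91) in SD. Over the 44 members that rose in WT SD the median change here was -0.01, from -0.28 to 0.28, and the median bounds of their 95% intervals were -0.23 and 0.23.

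The response in Mef2c-cKO mice also centred near 0. None of 73 members was called by limma, edgeR or DESeq2 (0.0234%, 0.0234% and 0.195% of all genes were), and of 11 with an unadjusted p of at most 0.05 (3.05% of all genes), 1 was higher and 10 lower. The medians were -0.04 in complex I, -0.06 in complex III, -0.11 in complex IV and -0.04 in complex V. Complex I was at 6.09 to 6.21 (median 6.11) in CS and 6.08 to 6.10 (median 6.09) in SD, so the 3 SD libraries were nearly identical and lay at the lower edge of the CS range. The test of the difference between the 2 responses called no member (limma, 12 at an unadjusted p of at most 0.05 against 7.81% of all genes, with 2 called by DESeq2), and 1 of 12860 genes overall (0.00778%).

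The WT and Mef2c f/f responses differed in 4 of 73 members by the test of the difference itself, where 15.1% of 13106 genes did (adjusted p of at most 0.05, with no threshold on fold). Over all members the median difference, Mef2c f/f minus WT, was -0.43, between -0.42 and -0.46 in the 4 complexes. Cox5b rose by 1.17 in WT and had -0.15 in Mef2c f/f, a difference of -1.31 ± 0.36 (SE, adjusted p = 0.03, limma). Ndufb10 had 0.99 and -0.19 (difference -1.18 ± 0.38, adjusted p = 0.0449, limma), and Atp5l, subunit g of complex V, had 0.86 and -0.16 (difference -1.02 ± 0.34, adjusted p = 0.0489, limma). Cox7b2 went the other way, with -1.0 in WT and 0.92 in Mef2c f/f (difference 1.93 ± 0.60, adjusted p = 0.0411, limma). Mean levels from Mef2c f/f CS to SD were 138 and 124 rescaled CPM for Cox5b, 99.0 and 84.0 for Ndufb10, 94.7 and 84.4 for Atp5l and 2.99 and 5.23 for Cox7b2. Without Mef2c f/f CS 2, CS 4, SD 1 or SD 3 no member was called, and without WT CS 5 or WT CS 6, 20 were. Of all genes, 274, 172, 92, 23, 3143 and 3300 were called in these fits in turn, against 1983 with every library. With CPM as deposited 1 member was higher and 23 lower, where 507 genes were higher and 2919 lower against 1225 and 758. The listed genes of every WT library sum to 925580 to 985958 CPM and those of every other library to 1000000. No label names a batch, and genotype cannot be told apart from whatever lies behind this difference in the listed sums.

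The control groups themselves were at different levels. The mean level of complex I was 5.43 ± 0.29 (SD, n = 6) in WT CS and 5.92 ± 0.14 (SD, n = 4) in Mef2c f/f CS, which is about where WT SD lay, at 5.91 ± 0.28 (SD, n = 7). Complex III stood at 5.79 ± 0.38, 6.4 ± 0.14 and 6.39 ± 0.35, complex IV at 6.51 ± 0.33, 7.19 ± 0.12 and 7.07 ± 0.38, and complex V at 6.03 ± 0.32, 6.61 ± 0.08 and 6.56 ± 0.26 in the same 3 groups. No test was made between WT and Mef2c f/f controls.

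Mef2c-cKO mice had higher levels of some members than Mef2c f/f mice in control sleep. Of 73 members, 13 rose (17.8%) and none fell, against 3.17% and 4.5% of 12681 genes. By symbol they were 8 of 35 in complex I, 2 of 8 in complex III, none of 13 in complex IV and 3 of 17 in complex V. The 8 include Ndufa4, whose product is a subunit of complex IV despite its symbol. The medians by symbol were alike, at 0.21, 0.22, 0.19 and 0.23, beside 0.03 over all genes. The lack of a call under the complex IV symbols therefore does not show that this complex differed from the others. For 24 members (32.9%, against 13.4% of all genes) every Mef2c-cKO CS library was above every Mef2c f/f CS library, and for 2 members (against 13.5%) every one was below.

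Ndufb2, an accessory subunit of the complex I membrane arm, had the largest of these rises. It was at 35.3, 33.5, 29.9 and 35.0 rescaled CPM in Mef2c f/f CS and at 57.9, 53.3 and 55.4 in Mef2c-cKO CS, with a log2 fold change of 0.73 ± 0.09 (SE, adjusted p = 0.00407, limma). The groups were well apart. Ndufs5 rose from 42.1 to 66.5 rescaled CPM on average, Ndufc1 from 29.1 to 45.8 and Ndufv3 from 42.0 to 62.3, log2 fold changes of 0.66 ± 0.10, 0.64 ± 0.08 and 0.56 ± 0.11. The others with complex I symbols were Ndufb11 (42.0 and 58.2, log2 fold change 0.47), Ndufa1 (40.4 and 53.6, 0.41), Ndufb6 (46.0 and 60.3, 0.39) and Ndufa4 (179 and 233, 0.37). All 13 called members had every Mef2c-cKO CS library above every Mef2c f/f CS library.

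In complex III Uqcr11 rose from a mean of 81.9 to 115, by 0.49 ± 0.11, and Uqcrh, the hinge protein, from 112 to 154, by 0.45 ± 0.08. In complex V Atp5g2, a second gene for the c subunit, was at 25.5, 26.4, 29.4 and 26.9 rescaled CPM in Mef2c f/f CS and at 41.9, 39.7 and 40.9 in Mef2c-cKO CS, a log2 fold change of 0.59 ± 0.09 (SE, adjusted p = 0.00773, limma). Atp5e rose from 66.9 to 93.2, by 0.48 ± 0.08, and Atp5c1 from 181 to 228, by 0.33 ± 0.08. Atp5c1 is thus among the called members here, whereas its change in WT CS to SD was 0.01. The Spearman correlation of these changes with GC content was 0.03 over 72 members, against 0.55 in WT CS to SD.

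Without Mef2c-cKO CS 8, 8 of the 13 were called, and without Mef2c-cKO CS 7, 3. Without Mef2c f/f CS 2, 5 were called, and without Mef2c f/f CS 3, 8. Of all genes, 611, 171, 175 and 543 were called in these fits in turn, against 973 with every library. With CPM as deposited 19 members rose and none fell, where 882 genes rose and 346 fell against 402 and 571, and the median of all genes was 0.13. Markers of other cells moved in the same comparison. Excitatory neuron markers summed to 2484 to 2850 rescaled CPM in Mef2c f/f CS and to 2050 to 2597 in Mef2c-cKO CS, with 1 of 13 lower. Microglial markers summed to 211 to 253 and to 256 to 868, with none of 11 called by limma, and 2 of 13 oligodendrocyte markers were higher. Of 10 meningeal fibroblast markers 3 were higher, with sums of 90.5 to 107 and 103 to 129, and 1 of 13 inhibitory neuron and 1 of 12 astrocyte markers were higher and 1 of 10 endothelial markers lower. In bulk tissue fewer cells of a type and less RNA per cell cannot be told apart, and the part of these markers in the result was not tested.

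After sleep deprivation the genotypes differed in 8 members. Of 73, 6 rose (8.22%) and 2 fell, against 9.1% and 5.99% of 12774 genes, so the share that rose was near the background. With CPM as deposited 17 rose and 2 fell, where 1694 genes rose and 492 fell against 1162 and 765. Without Mef2c f/f SD 1 or SD 3, 2 members were called (822 and 948 of all genes). Without Mef2c-cKO SD 5, 4 members were called (1443), and without Mef2c f/f SD 2, 18 (1396), against 1927 of all genes with every library. The risers were Ndufa2 (a mean of 38.3 and 55.1 rescaled CPM, log2 fold change 0.52 ± 0.07), Ndufb2 (40.6 and 55.0, 0.43 ± 0.10), Ndufs6 (34.7 and 44.3, 0.35 ± 0.07), Ndufb10 (84.0 and 103, 0.31 ± 0.08), Ndufv2 (97.1 and 119.9, 0.30 ± 0.08) and Cox5b (124 and 163, 0.40 ± 0.10), and both fallers were in complex IV. The medians were 0.17, 0.14, -0.08 and 0.18 in complexes I, III, IV and V. For 28 members every Mef2c-cKO SD library was above every Mef2c f/f SD library, and for 4 every one was below, against 21.6% and 18.7% of all genes. In complex IV 6 of 13 members had a positive change, in complex III 8 of 8, in complex I 31 of 35 and in complex V 15 of 17. No test of the difference between complexes was made, since members are not replicates. The mean levels of complexes I, III and V in the 3 Mef2c-cKO SD libraries were all above those of the 3 Mef2c f/f SD libraries, and those of complex IV overlapped.

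**Figure D5:**
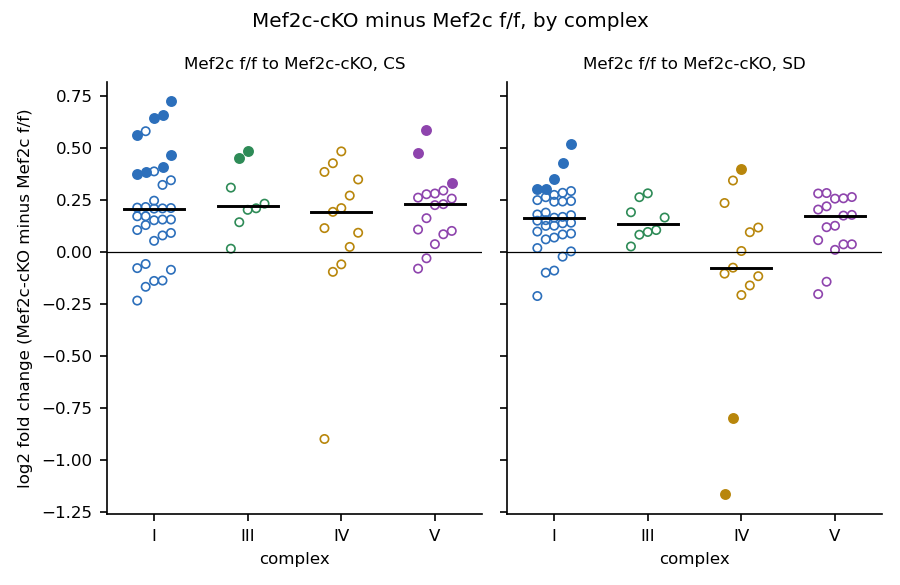
Log2 fold change of each tested member from Mef2c f/f to Mef2c-cKO by complex, in control sleep and after sleep deprivation, filled where called, with the median of each complex as a bar. In control sleep the medians lie at 0.19 to 0.23. After sleep deprivation complex IV has a median of -0.08, and its lowest 2 members, Cox7b2 and Cox6a2, are the called fallers.

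Cox6a2, the heart and muscle form of subunit 6a, was at 4.14, 4.17 and 3.99 rescaled CPM in Mef2c f/f SD and at 2.20, 1.93 and 2.31 in Mef2c-cKO SD, and fell by 0.80 ± 0.12 on the log2 scale (SE, adjusted p = 0.00441, limma). In control sleep it was at 3.63, 3.65, 4.0 and 3.68 against 3.06, 2.59 and 0.565, again without overlap, and the value of -0.90 ± 0.37 did not pass (adjusted p = 0.151, limma). The lowest library was Mef2c-cKO CS 8, and without it the value was -0.35 ± 0.15 (SE, adjusted p = 0.19, limma). In the cortex Cox6a2 is best known from parvalbumin interneurons, and Pvalb, their defining marker, was at 46.2 to 48.4 in Mef2c f/f SD and 18.2 to 19.9 in Mef2c-cKO SD. The summed level of 13 inhibitory neuron markers moved the other way, from 883 to 994 up to 1156 to 1302, with 7 higher and 3 lower. Excitatory neuron markers summed to 2930 to 3085 and to 2312 to 2531, with 6 of 13 lower and none higher. Microglial markers summed to 238 to 245 and to 298 to 340, with 8 of 11 higher and none lower. Of all genes 9.1% rose and 5.99% fell. The part of these markers in the fall of Cox6a2 and in the other calls of this comparison was not tested. Its liver-type paralogue Cox6a1 had 0.24 ± 0.11 in the same comparison and did not pass.

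Cox7b2, a second gene for subunit 7b, was low in every group. It was at 5.66, 3.12 and 6.91 rescaled CPM in Mef2c f/f SD and at 2.02, 1.69 and 2.15 in Mef2c-cKO SD, and fell by 1.17 ± 0.25 on the log2 scale (SE, adjusted p = 0.0168, limma). In Mef2c f/f CS it ranged from 0.692 to 6.45. In WT CS it was at 3.55 to 18.4 (median 4.17), the top value being WT CS 2, and at 1.62 to 3.12 (median 2.4) in WT SD, with no overlap, and fell by 1.0 ± 0.30 on the log2 scale (SE, adjusted p = 0.0155, limma). Without WT CS 2 the value was -0.66 and was still called. Its paralogue Cox7b rose in that comparison, by 0.53 ± 0.20, from a level of 87.6 to 128.

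Of the c subunit genes, which encode the same mature protein, Atp5g3 rose by 1.28 and Atp5g2 by 0.54 in WT SD, and Atp5g1 had 0.51 ± 0.22 and did not pass (adjusted p = 0.0621, limma). Cox7a1, the muscle form of subunit 7a, was at 0.366 to 1.27 rescaled CPM (median 0.916) in WT CS and 0.991 to 2.04 (median 1.22) in WT SD, and rose by 0.41 ± 0.16, whereas quantile normalization gave -0.05. It reached a CPM of 1 in every library of WT SD but not of WT CS. It was thus tested only through the group where it was higher, and its call is no support for a change. Cox7a2 (0.58 ± 0.31) and Cox7a2l (0.15 ± 0.10), which tunes the joining of complexes III and IV, did not pass.

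Some members were at or below the limit of testing. Cox4i2 and Ndufa4l2, known from vessel mural cells and from hypoxia, were at 0.311 to 1.12 and 0.350 to 1.56 rescaled CPM over the 33 libraries. Both had their highest group mean in WT SD, at 0.813 ± 0.205 and 1.28 ± 0.205 (SD, n = 7), where the 11 markers of pericytes and smooth muscle summed to 195 to 236 rescaled CPM, within the 168 to 280 of WT CS. Cox6b2, the testis form of subunit 6b, reached at most 1.57, and Cox8b at most 0.194. Cox8c had reads in 1 of 33 libraries. Ndufa13 and Cox4i1 are listed at 0 in all 33 libraries. Both genes overlap others in the annotation, Ndufa13 with Yjefn3 on its own strand and Tssk6 on the other, and Cox4i1 with Gm20388 on its own strand and Emc8 on the other, and no value is given for them. Ndufb8, Ndufb9 and Cox7c also overlap a gene on their own strand and had reads in every library. The reason for the values of 0 was not tested.

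Other genes that serve the same chain are not members. In WT CS to SD the 4 genes of complex II, which feeds electrons from succinate and is made from nuclear genes alone, had a median of 0.58 and 3 rose: Sdhb (0.59), Sdhc (0.60) and Sdhd (0.57). Of the carriers around the complexes, 5 of 14 rose and 3 fell. Cyc1 rose by 0.97 ± 0.29, and Etfa, Pdss1 and Pdss2, which feed electrons in from fatty acids or build the tail of ubiquinone, fell by 0.37, 0.52 and 0.38 on the log2 scale. The medians of the 4 complexes described above were 0.50 to 0.53.

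Of the assembly factors for complex IV, 9 of 21 rose and none fell (median 0.19), among them Cox14 (1.22 ± 0.33) and Cox17 (0.96 ± 0.32), a copper chaperone at 1.73 rescaled CPM in WT CS and 3.57 in WT SD. For complex I 3 of 14 rose and 3 fell (median 0.11), with Ndufaf3 at 0.61 and Nubpl, an iron-sulphur cluster carrier, at -0.43. For complex III 3 of 6 rose, led by Uqcc2 (0.91 ± 0.28), and Ttc19 fell by 0.42 on the log2 scale (median 0.19). None of 4 assembly factors and inhibitors of complex V was called (limma). These counts stand beside the 24.6% of all genes that rose and the 20.5% that fell.

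Of 17 regulators of these genes, 4 rose and 4 fell in WT CS to SD, shares near the background of all genes (24.6% and 20.5%). Esrra, a nuclear receptor that drives respiratory genes, rose by 0.95 ± 0.28, and Polrmt, the mitochondrial RNA polymerase, by 0.78 ± 0.23. Ppargc1a, the coactivator PGC-1 alpha, fell from 108 ± 30.3 to 71.8 ± 9.67 rescaled CPM (SD, n = 6 and 7), by 0.55 ± 0.15 on the log2 scale, and the receptor Esrrg fell by 0.67 ± 0.17. From Mef2c f/f to Mef2c-cKO in control sleep, Ppargc1b (-0.62 ± 0.11) and Nrf1 (-0.41 ± 0.09) fell while 13 members rose, and Cox17 rose in both genotype comparisons (1.19 and 0.63).

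Among markers of other cells in WT CS to SD, those of meningeal fibroblasts had the largest share of calls. The 10 meningeal fibroblast markers summed to 23.6 to 94.2 rescaled CPM in WT CS and to 110 to 163 in WT SD, with 7 of 9 higher, and to 41.0 to 106 in WT RS. In WT CS to RS only 7 were tested. Some of the 9 were therefore tested only through their level in WT SD, which favours a rise in this count. Of the pericyte and smooth muscle markers 4 of 11 were higher and 1 lower. The other lists are to be read beside the 24.6% of all genes that rose and the 20.5% that fell: excitatory neuron markers had 1 of 13 higher and 2 lower, inhibitory neuron markers 2 of 13 higher and 1 lower, oligodendrocyte markers 4 of 13 higher and 3 lower, microglial markers 2 of 10 higher and 1 lower, astrocyte markers 3 of 12 higher and 1 lower, and endothelial markers 1 of 10 higher and 3 lower. The part of any of these in the rise of the respiratory chain genes was not tested.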

How the data were processed

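Per the study's methods, reads were trimmed with Trimmomatic, aligned to mm10 with STAR, counted per gene with HTSeq as uniquely mapped reads and converted with edgeR, and the authors deposited counts per 1000000 reads (CPM). Every column was matched to a labelled sample. Versions and the annotation release are not given in the sources used here. The values of 33 libraries were rescaled with median-of-ratios factors and taken as log2 with a pseudocount of 0.5. Genes that reached a CPM of 1 in every replicate of a compared group were fitted with limma 3.58.1 (trend) in R 4.3.3, separately for each pair of groups, with Benjamini-Hochberg adjustment over all of them. Differences between responses were interaction terms over 4 groups. A call needed an adjusted p of at most 0.05 and, other than for these, a log2 fold change of 0.3 or more in size. Every printed adjusted p is from limma.

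Of 711645 values, 100.0% were whole multiples of 1 read within 0.01, so edgeR 4.0.16 and DESeq2 1.42.0 were run on the recovered reads as alternatives. The limma fit alone was tried on simulated counts, for CS to SD in each genotype. In them genes varied independently of each other, unlike the members here, so this trial does not check the calls. Members and lists were chosen with earlier results of these data known. Levels were given by library, range or group mean for the 3 largest called rises and falls of each complex in WT CS to SD, the called members of other comparisons and, more briefly, paralogues with a textbook tissue form. Symbols were matched to GENCODE transcripts on GRCm38 (19230 directly, 241 as synonyms), promoters to RefSeq. The labels do not tie each library to an animal, so p-values measure the spread between these samples.

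Replicate numbers were checked as pairs. Deviations of same-numbered libraries correlated with r from -0.33 to 0.55 in WT CS and SD and from -0.73 to 0.33 in WT SD and RS. All 6 pairs of WT CS and RS were positive (0.07 to 0.67), as were those of Mef2c f/f (0.05 to 0.26) and Mef2c-cKO (0.07 to 0.15). Since signs were mixed or the lowest value was near 0, the numbers were not taken to pair the libraries. Whether they pair WT CS and RS was not settled.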

Additional observations from a re-analysis of the deposited data

Results flagged for a closer look

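In 13 of 184 gene and group sets of 4 to 10 libraries, 1 library stood apart from the others by Dixon's ratio, where chance gives about 1 in 20. WT SD 2 was the high library for 6 genes: Atp5e (116 rescaled CPM), Atp5k (211), Cox7a1 (2.04), Cox7a2 (216), Ndufb6 (67.0) and Uqcrh (174). In WT CS, Cox8a (280.0), Ndufa6 (56.3) and Ndufc1 (36.0) were high in WT CS 5 and Cox7b2 (18.4) in WT CS 2. Ndufv2 stood at 122 in WT RS 4, Uqcrc2 at 181 in WT SD 1 and Cox6a2 at 4.0 in Mef2c f/f CS 3.

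The response to sleep deprivation differed between Mef2c f/f and WT mice, by the limma interaction term, in Cox5b (-1.31 on the log2 scale), Ndufb10 (-1.18), Atp5l (-1.02) and Cox7b2 (1.93). In these values genotype cannot be told apart from whatever lies behind the difference in listed CPM sums between WT and the other libraries.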

How the results depend on the processing

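Over the members called in WT CS to SD and their alternatives, 1008 values kept their direction and call, 247 lost the call and 7 reversed. With the GC content and transcript length correction, Atp5g2 (-0.21), Cox7a1 (-0.28), Ndufa11 (-0.15), Ndufb2 (-0.054), Ndufs6 (-0.0092) and Ndufs7 (-0.10, and -0.028 in WT CS to RS) reversed, as did Cox7a1 with quantile normalization (-0.049). That correction left 24 members called in WT CS to SD (complex I median 0.16) and 2 in WT CS to RS. From Mef2c f/f to Mef2c-cKO it left 9 in CS and 5 in SD. In the difference of the Mef2c f/f and WT responses it left 2. Of all genes, 2876, 581, 1179, 1770 and 281 were called with it in these comparisons in turn. The cause was not tested for any of these changes.

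With CPM as deposited 30 members were called in WT CS to RS, 19 in the genotype comparison in SD and 24 in the difference from WT. Quantile normalization called 14 in the genotype comparison in SD. Without a filter on low values 0 were called in WT CS to RS and 1 in the difference from WT. In WT CS to RS edgeR called 7 and DESeq2 32, and DESeq2 called 11 in the difference from WT and 2 in the difference between Mef2c-cKO and Mef2c f/f. Array quality weights, whose estimation stopped before convergence in some fits, called 6 in Mef2c f/f CS to SD, 4 in Mef2c-cKO CS to SD (complex I median -0.12), 25 in the genotype comparison in CS, 8 in the difference between Mef2c-cKO and Mef2c f/f and 48 in the difference from WT.

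The replicate block used numbers that were not taken to pair the libraries. It called 0 members in WT CS to SD (42 at an unadjusted p of at most 0.05). In WT CS to RS it called 45, which include all 17 of the fit without it. It called 0 in WT SD to RS, Mef2c f/f CS to SD, Mef2c-cKO CS to SD and the difference from WT. Of all genes it called 287 in WT CS to SD and 4279 in WT CS to RS. No paired analysis was possible between Mef2c f/f and Mef2c-cKO because the groups share fewer than 2 numbers.

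Chosen after seeing the data, depth as a covariate called 46 members in WT CS to RS and 1 in the difference from WT. Of all genes it called 4276 and 946. With it the medians in Mef2c f/f CS to SD were 0.14, 0.17 and 0.12 in complexes I, III and V. Leaving out WT CS 1 and WT CS 2 together called 18 members in WT CS to SD, 0 in WT CS to RS and 2 in the difference from WT. Of all genes that fit called 3717, 0 and 1485.

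With each library left out in turn, 29 to 52 members were called in WT CS to SD, 0 to 33 in WT CS to RS, 0 to 3 in Mef2c f/f CS to SD, 3 to 16 and 2 to 18 between genotypes in CS and SD, and 0 to 20 in the difference from WT, and 0 in each of the other 3 comparisons. The median of complex IV in Mef2c f/f CS to SD then ranged from -0.054 to 0.11.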
